A study of Mus musculus with 26 samples.

Results

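Cultured mouse haematopoietic lines kept without doxycycline (dox) for 48 h were compared by the cell they were started from: lines immortalized from long-term haematopoietic stem cells (LT-HSC) against lines immortalized from granulocyte macrophage progenitors (GMP). The arrays were chosen by their titles, 3 named LTHSCder_noDOX_48h and 3 named GMPder_noDOX_48h, which are 6 of the 26 arrays of the series, and every difference is LT-HSC-derived minus GMP-derived. All cells are of strain C57BL/6, and the cultured cells were harvested from liquid medium. The LT-HSC-derived lines are called B6-2, B6-3 and B6-1, and the GMP-derived lines B6-2, B6-3 and F6-6. Values of single arrays are given in those orders. The labels call the replicates biological, and each of the 6 arrays is a different line. The error of each test pools the spread within every group of the 26 arrays, not only that between the 3 lines of each origin. The sources used here do not say whether a line is 1 clone. The other groups used below are the lines with dox at 48 h (2 LT-HSC-derived and 4 GMP-derived arrays), the 3 LT-HSC-derived lines at 72 h of dox-free culture and LT-HSC and GMP sorted from wild-type animals (4 arrays each). The sorted replicates are called biological too, though the labels do not tie each to an animal of its own. The hours are those of the labels, and their starting point is not stated.

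LT-HSC sit at the top of the blood hierarchy and renew themselves, while GMP are committed to granulocytes and macrophages. MLL-AF9, named in the title of the series, joins part of the KMT2A (MLL) gene to MLLT3 (AF9) and keeps progenitors from maturing by holding up genes such as the Hoxa cluster and Meis1. In inducible systems of this kind dox usually switches the transgene on, so that cultures without it are those in which maturation can proceed. Neutrophils, macrophages, mast cells, basophils and eosinophils are the mature cells that myeloid progenitors can give, and each is known by its granule proteins. The comparison asks how far lines of different starting cell differ in cultures without dox.

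Of 19937 genes tested, 1355 (6.80%) passed the threshold of an adjusted p of 0.05, 702 (3.52%) higher and 653 (3.28%) lower in LT-HSC-derived lines (limma over all 26 arrays, 2-sided, Benjamini-Hochberg adjustment). The median difference over all genes was 0.01 log2, and the arrays of the 2 origins did not overlap for 4670 genes (23.4%), of which 1328 were also called (6.66% of all genes). Among those, 120 genes (0.602%) were higher and 85 (0.426%) lower by more than 1 log2. Signals are deposited log2 values, where 1 log2 is a doubling. The median of all probe sets was 5.86, and whether signals below it lie above background was not analysed, so folds against such signals are uncertain. Across genes the first principal component of the 6 arrays held 55.5% of the variance and separated the origins, with line B6-1 at -31.2 and the other LT-HSC-derived lines at -12.3 and -16.1. Without LT-HSC-derived line B6-1 (replicate 3) 743 genes passed, and without GMP-derived line B6-3 (replicate 2) 880 passed. When only the 6 arrays were fitted, 595 genes passed. Of the 92 calls among the genes named by rule, 33 passed under all 17 alternatives. Fitting only the 6 arrays ended 38 of them, among them Il6 (adjusted p = 0.0532), Cpa3 (0.0775), Mcpt8 (0.0752), Ctla2a, Ccl24, Rnase12, Cd200r3, Prg3, Cdh1 and Olfm4, and none of the 92 changed direction. RNA came from whole cultures, in which fewer cells of a type and less RNA per cell cannot be told apart.

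**Figure D1:**
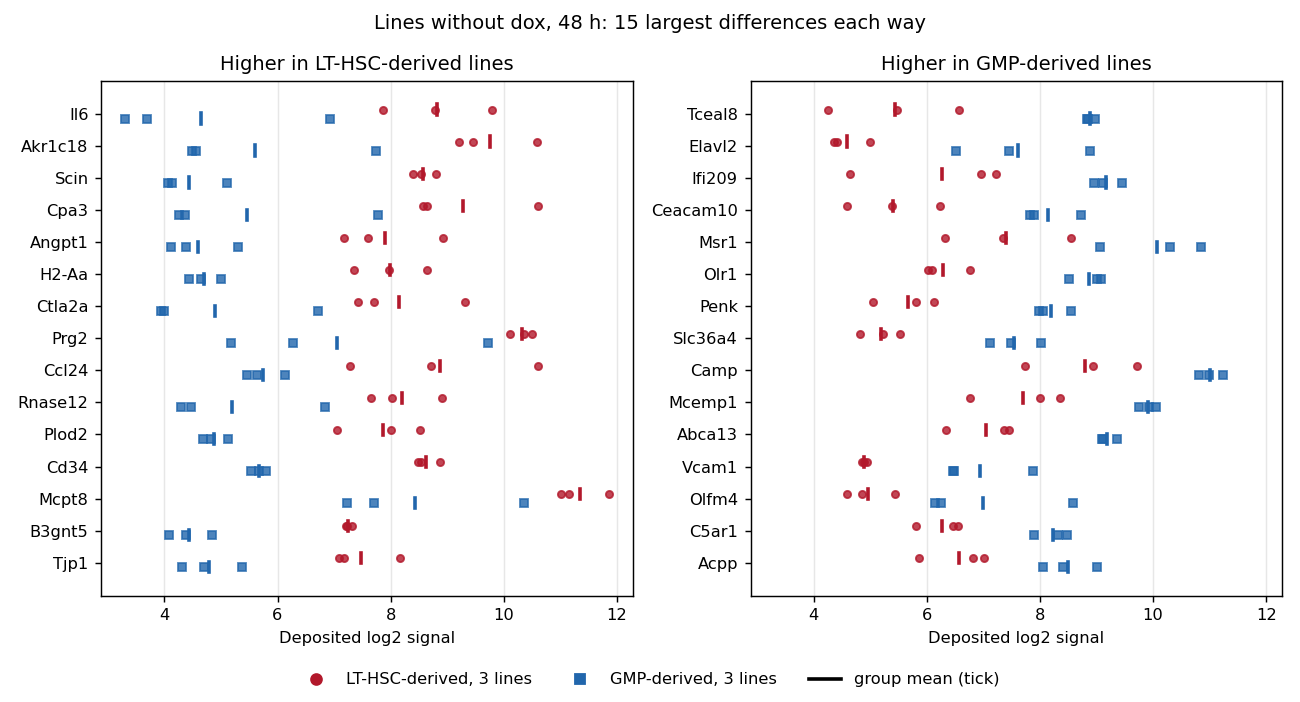
Deposited log2 signal (x axis) on each of the 6 arrays for the 15 largest differences in each direction, with LT-HSC-derived lines as red circles, GMP-derived lines as blue squares and group means as ticks. The groups do not overlap for any gene shown, and for Il6, Akr1c18, Cpa3, Ctla2a, Prg2, Rnase12 and Mcpt8 the GMP-derived line B6-2 lies far above the other GMP-derived lines.

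Genes of mast cells, basophils and eosinophils were among the largest differences. Of 15 measured mast cell and basophil genes, 8 were higher in LT-HSC-derived lines and none was lower, with a median difference of 1.23 log2. Over all genes 3.52% were called higher and 3.28% lower, the shares to set beside each list count for these lines. Cpa3, the mast cell carboxypeptidase, read 8.65, 8.58 and 10.61 in LT-HSC-derived lines and 7.77, 4.36 and 4.26 in GMP-derived lines. The GMP-derived line B6-2 thus stood close below the LT-HSC-derived lines, and B6-1 stood above all others. The difference was 3.82 ± 0.74 log2 (SE, n = 3 and 3, adjusted p = 0.00172). Mcpt8, a basophil protease, read 11.02, 11.16 and 11.86 against 10.35, 7.22 and 7.70, a difference of 2.92 ± 0.53 log2. The arrays of the 2 origins did not overlap for either gene. Fcer1a and Ms4a2 encode the alpha and beta chains of the high-affinity IgE receptor. Fcer1a read 6.43, 6.09 and 9.28 against 5.21, 4.41 and 4.57, so that B6-1 again led. Ms4a2 was higher by 1.99 ± 0.46 log2. Cd200r3 by 2.51, the protease gene Prss34 by 1.97, the histamine-forming enzyme Hdc by 1.64 and the transcription factor Gata2 by 0.85 log2 made up the rest. Kit, the stem cell factor receptor on which mast cells depend, differed by 0.33 log2 and did not pass, nor did the tryptase genes Tpsb2 (0.10) and Tpsab1 (-0.08).

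Taken over the whole list, the mean level of the 15 mast cell and basophil genes was 6.30, 6.32 and 7.51 in LT-HSC-derived lines and 5.95, 5.01 and 5.06 in GMP-derived lines. Of the 15 genes, 14 had a positive difference. The list rests on single lines for its calls: 4 genes were called without LT-HSC-derived line B6-1, 5 without GMP-derived line B6-3, 6 without F6-6, and 8 without GMP-derived line B6-2. When only the 6 arrays were fitted none was called by limma, though 8 had an unadjusted p under 0.05. Fcer1a lost its call without B6-1 (adjusted p = 0.228), without GMP-derived line B6-3 (0.0976) and without F6-6 (0.0681). In the sorted cells 6 of the 15 genes were lower in LT-HSC than in GMP and 2 were higher, where 16.8% and 15.3% of all genes were called lower and higher. Mcpt8 was lower in sorted LT-HSC by -3.83 ± 0.46 log2 and Cpa3 by -2.39, against 2.92 and 3.82 in the lines. The change of sign was itself tested as the line difference minus the sorted difference, in which 22.5% of genes were called, 12.3% positive and 10.2% negative. It was 6.75 log2 for Mcpt8 (adjusted p = 8.27e-08) and 6.21 for Cpa3 (adjusted p = 3.34e-05).

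Among eosinophil granule genes GMP-derived line B6-2 again stood above the other GMP-derived lines. Prg2, the major basic protein, read 10.11, 10.50 and 10.35 against 9.73, 6.27 and 5.18 so that GMP-derived line B6-2 lay just under the LT-HSC-derived lines. The difference was 3.26 ± 0.85 log2 (adjusted p = 0.0195), and the call was lost without GMP-derived line B6-3 (adjusted p = 0.103), without F6-6 (0.135), without LT-HSC-derived line B6-3 (0.061) and without B6-1 (0.0673). Its homologue Prg3 was higher by 2.08 ± 0.45 log2. Of 8 eosinophil genes 2 were called, and all 8 differences were positive. Leaving out GMP-derived line B6-2 gave 4 calls, and leaving out GMP-derived line B6-3, F6-6 or LT-HSC-derived lines B6-3 or B6-1 gave 1. Rnase12, a member of the RNase family, read 7.65, 8.03 and 8.90 against 6.84, 4.47 and 4.29. Epx, eosinophil peroxidase, differed by 1.09 log2 and did not pass.

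**Figure D2:**
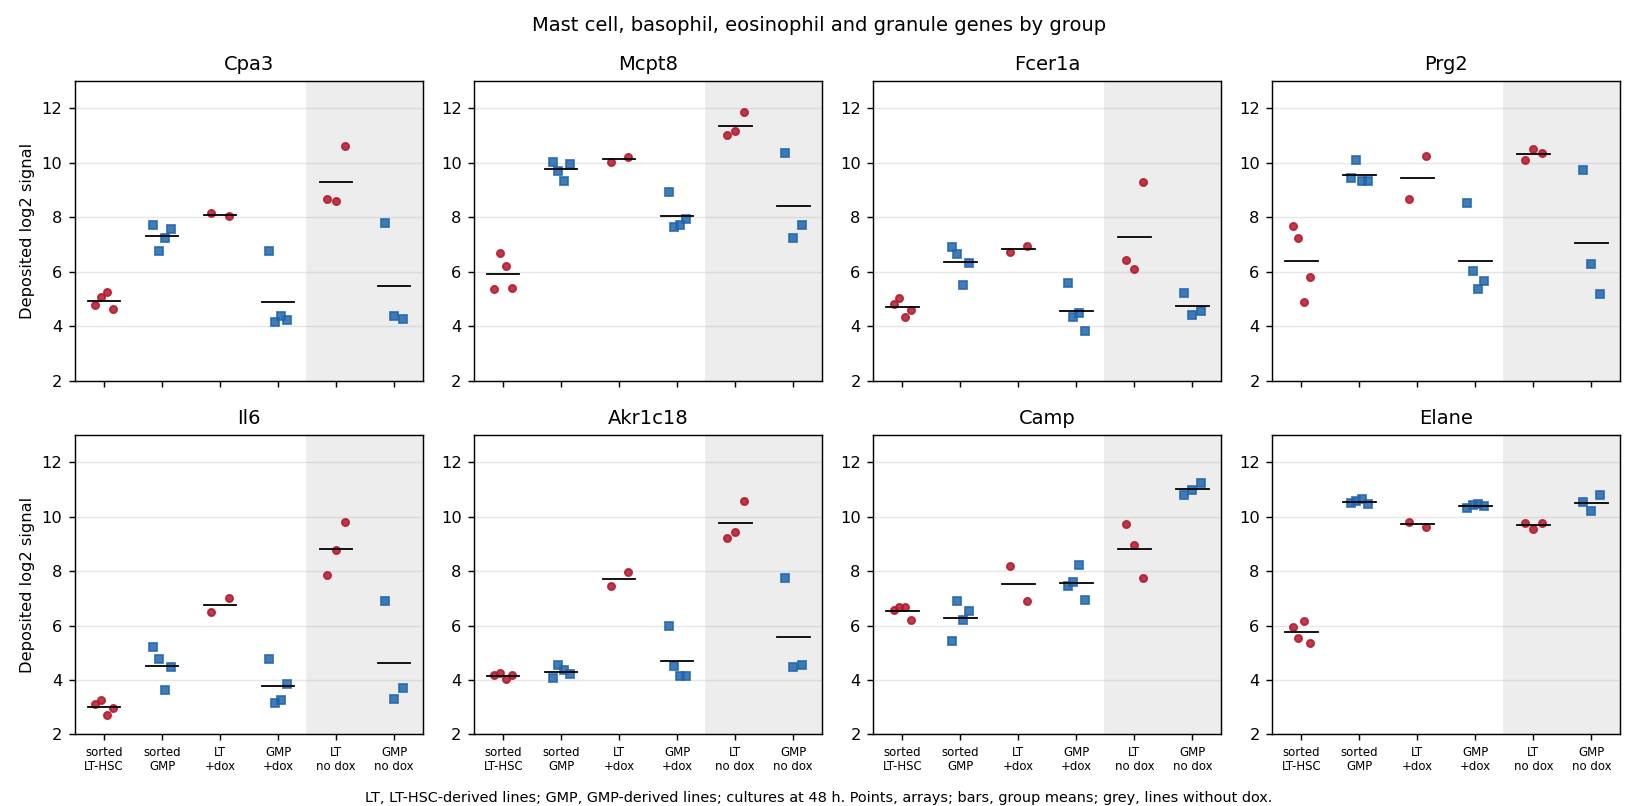
Deposited log2 signal (y axis) of 8 genes in sorted cells, in lines with dox and in lines without dox at 48 h, with 1 point per array and bars at group means. For Cpa3, Mcpt8, Fcer1a and Prg2 sorted GMP lie above sorted LT-HSC while LT-HSC-derived lines lie above GMP-derived lines, and Camp is highest in GMP-derived lines without dox.

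The promoters of the called mast cell and basophil genes were read for the motif AGATAA, which reads as TTATCT on the other strand and is a form of the site bound by GATA factors such as Gata2, because many mast cell promoters are known to carry it close to the start. In the 120 bases before the start site it occurred in 5 of the 8 called genes and in none of the 4 uncalled genes that the promoter table holds, against 4.36% of 32851 mouse promoters. The shorter core GATAA, also searched on both strands and contained in the longer motif, occurred in the same 5, in 2 of the 4 uncalled and in 10.5% of all. Sequences are from RefSeq, build GRCm38.p6, each 5′ to 3′ along its gene and ending at the base before the start site, with the motif in capitals. Cpa3 lies at chr3:20242182-20242301 (minus strand), Ms4a2 at chr19:11623720-11623839 (minus strand) and Prss34 at chr17:25298274-25298393 (plus strand).
Cpa3: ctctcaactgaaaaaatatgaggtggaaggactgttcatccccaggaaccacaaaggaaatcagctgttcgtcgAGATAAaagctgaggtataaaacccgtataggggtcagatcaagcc
Ms4a2: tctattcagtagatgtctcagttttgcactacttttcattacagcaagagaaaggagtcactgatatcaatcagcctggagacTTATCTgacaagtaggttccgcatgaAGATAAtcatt
Prss34: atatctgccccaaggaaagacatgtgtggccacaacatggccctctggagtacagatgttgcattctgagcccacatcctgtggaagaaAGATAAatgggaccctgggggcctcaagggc
The motif began 46 bases before the start in Cpa3 and 31 bases in Prss34, and Ms4a2 had it at 37 and 11 bases, once on each strand. A match of letters is a description and shows no binding.

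The genes that make and load MHC class II, the surface complex that presents peptides to helper T cells, were higher in LT-HSC-derived lines. Of 8 measured genes 6 were called higher and none lower, beside 3.52% and 3.28% of all genes, and the median difference was 0.91 log2. H2-Aa, the alpha chain of I-A, read 7.36, 7.98 and 8.64 against 4.64, 5.00 and 4.44. The groups lay more than 2 log2 apart at their nearest arrays. The difference was 3.30 ± 0.22 log2, or 9.84-fold (adjusted p = 6.78e-10). Its partner chain H2-Ab1 read 7.62, 8.28 and 8.81 against 5.53, 6.11 and 5.72, a difference of 2.45 ± 0.24 log2. H2-Ob, a chain of the H2-O regulator, was higher by 1.15 ± 0.19 log2. These 3 genes passed under all 17 alternatives. H2-Eb1 (0.68) and H2-Oa (0.57) were called too. Without LT-HSC-derived line B6-1 4 of the 8 were called, and 3 when only the 6 arrays were fitted. Cd74, the invariant chain, read 6.11, 7.37 and 8.06 against 5.49, 6.20 and 5.51 and so overlapped by 1 array at a difference of 1.44 ± 0.30 log2. Ciita, the master regulator of the class, differed by 0.29 log2 (adjusted p = 0.162) and the loading factor H2-DMa by 0.15 log2, and neither passed. Of 14 measured dendritic cell genes Flt3 was called higher and Ly75 lower, with a median of 0.13 log2, and Zbtb46 differed by 0.04 log2. Only 4 of the 14 exceeded the median of probe sets in either group. The mean level of the list was 5.41 to 5.63 in LT-HSC-derived lines and 5.18 to 5.24 in GMP-derived lines. With the 72 h arrays of the LT-HSC-derived lines 4 were called higher and 1 lower, with a median of 0.27 log2. The shares of all genes were then 3.36% and 3.06%. The call of Ly75 was lost without F6-6 (adjusted p = 0.0614).

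H2-Aa was lower in lines with dox than without it in the LT-HSC-derived group, at a mean of 6.64 against 7.99, and reached 9.33 at 72 h without dox. In GMP-derived lines its means were 4.61 with dox and 4.69 without. Sorted LT-HSC had 6.60 and sorted GMP 5.28. The level in GMP-derived lines was thus below that of both sorted kinds, and the level in LT-HSC-derived lines without dox above both. The difference between the lines exceeded that between sorted cells by 1.97 ± 0.29 log2 (adjusted p = 1.45e-05).

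Promoters of the called class II genes are shown because they share a box. The motif TGATTGG, searched on both strands and known as the Y box of class II promoters, occurred within 120 bases before the start in H2-Aa, H2-Eb1, H2-Oa and H2-Ob, the 4 called genes that the table holds. It occurred in 5.15% of 32851 promoters and not in H2-DMa, and its core ATTGG, which lies inside it, in the same 4 genes and in 21.3% of all. All 4 lie on chromosome 17 of GRCm38.p6, H2-Aa at chr17:34287824-34287943 (minus strand), H2-Eb1 at chr17:34305747-34305866, H2-Oa at chr17:34092259-34092378 and H2-Ob at chr17:34238785-34238904 (plus strand). The capitals mark the box.
H2-Aa: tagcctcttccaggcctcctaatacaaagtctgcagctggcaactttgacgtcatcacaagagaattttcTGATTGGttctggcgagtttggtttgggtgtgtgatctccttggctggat
H2-Eb1: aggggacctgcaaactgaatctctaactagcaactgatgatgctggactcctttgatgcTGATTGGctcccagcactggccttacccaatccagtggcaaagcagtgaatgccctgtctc
H2-Oa: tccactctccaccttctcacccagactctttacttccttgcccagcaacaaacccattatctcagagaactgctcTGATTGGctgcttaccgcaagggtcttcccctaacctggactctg
H2-Ob: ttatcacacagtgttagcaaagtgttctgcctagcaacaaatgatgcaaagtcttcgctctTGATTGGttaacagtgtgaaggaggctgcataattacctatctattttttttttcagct
The box began 50 bases before the start in H2-Aa, 61 in H2-Eb1, 45 in H2-Oa and 59 in H2-Ob, always in the same orientation.

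Several surface molecules of stem and early progenitor cells were higher in LT-HSC-derived lines. Of 15 measured HSC surface and niche genes 6 were called higher and none lower, beside 3.52% and 3.28% of all genes. Their median was 0.06 log2. Cd34, a sialomucin of progenitors, read 8.54, 8.48 and 8.87 against 5.68, 5.53 and 5.80. The groups were each tight, and the difference was 2.96 ± 0.27 log2 (adjusted p = 1.68e-07). Flt3, the receptor of FLT3 ligand, read 7.34, 7.62 and 7.08 against 4.92, 4.73 and 5.01, a difference of 2.46 ± 0.29 log2. Angpt1, a ligand of the Tek receptor, read 7.60, 7.17 and 8.93 against 5.30, 4.11 and 4.38, a difference of 3.30 ± 0.49 log2. The costimulatory receptor Cd27 was higher by 1.23 ± 0.14 log2. Cd34, Flt3, Angpt1 and Cd27 passed under all 17 alternatives. The tetraspanin Cd9 (0.59) and the integrin chain Itga2b (0.58) were called as well. The call of Itga2b was lost without LT-HSC-derived lines B6-1 (adjusted p = 0.262) or B6-2 (0.06) and without GMP-derived lines B6-3 (0.113) or F6-6 (0.157). Procr and Slamf1, which are used to sort LT-HSC, differed by 0.00 and 0.06 log2. Between sorted LT-HSC and GMP 12 of the 15 genes were higher and 1 lower, beside 15.3% and 16.8% of all genes. There Cd34 differed by -0.96 and Flt3 by 0.11 log2, against 4.53 for Angpt1 and 1.16 for Cd27.

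Fewer stem cell regulators passed. Of 14 measured, 3 were called higher and 1 lower, beside 3.52% and 3.28% of all genes. In sorted cells 13 of the 14 were higher in LT-HSC than in GMP, as were 15.3% of all genes. Meis1, the Hox cofactor, read 7.71, 7.80 and 8.63 against 6.81, 6.36 and 6.71. All LT-HSC-derived lines were above all GMP-derived lines, by 1.42 ± 0.18 log2 (adjusted p = 1.65e-05). In sorted cells the Meis1 difference was 3.69 log2, and the lines differed by less (-2.28 log2, adjusted p = 1e-07). Tal1 was higher by 0.68 and Gata2, already named, by 0.85 log2. The call of Gata2 was lost without B6-1 (adjusted p = 0.082) and without F6-6 (0.0552). Hlf was lower by -0.38 log2, with means of 5.86 and 6.24 in the lines and 9.64 in sorted LT-HSC. Its call was lost without any 1 line but GMP-derived B6-3, and when only the 6 arrays were fitted. Mecom read 5.09, 4.78 and 5.80 against 4.68, 4.48 and 4.50, below the median of all probe sets in every line, and its difference of 0.67 log2 did not pass (adjusted p = 0.105).

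Among 14 known targets of MLL fusions 4 were called higher and none lower, with a median of 0.16 log2. Bcl2, which blocks apoptosis, read 9.0, 9.09 and 8.95 against 7.07, 6.44 and 6.85. The difference of 2.23 ± 0.11 log2 was 4.68-fold and had an adjusted p of 2.03e-12. Mean Bcl2 was 9.16 in sorted LT-HSC, 9.0 in sorted GMP and 8.34 in GMP-derived lines with dox, so GMP-derived lines without dox stood below every other group. Mef2c, a MADS-box factor, was higher by 1.31 ± 0.13 log2 and Cdk6 by 0.50 ± 0.12 log2. Bcl2, Mef2c and Meis1 passed under all 17 alternatives, whereas Cdk6 lost its call without B6-1 (adjusted p = 0.065) and without GMP-derived line B6-3 (0.0831). Hoxa9 differed by 0.17 ± 0.09 log2 (adjusted p = 0.351) and Hoxa10 by -0.13 log2. None of the 10 Hoxa and 9 Hoxb genes passed in limma, and the medians were 0.09 and -0.08 log2. Kmt2a, whose probe set cannot be taken to separate the fusion from the mouse gene, differed by 0.12 log2 (adjusted p = 0.5). Mllt3 was higher by 0.65 log2. Of 12 BCL2 family genes Pmaip1 (0.43) was the only other call, and it was lost without LT-HSC-derived line B6-2 (adjusted p = 0.108) and without GMP-derived lines B6-2 (0.0862) or B6-3 (0.107).

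**Figure D3:**
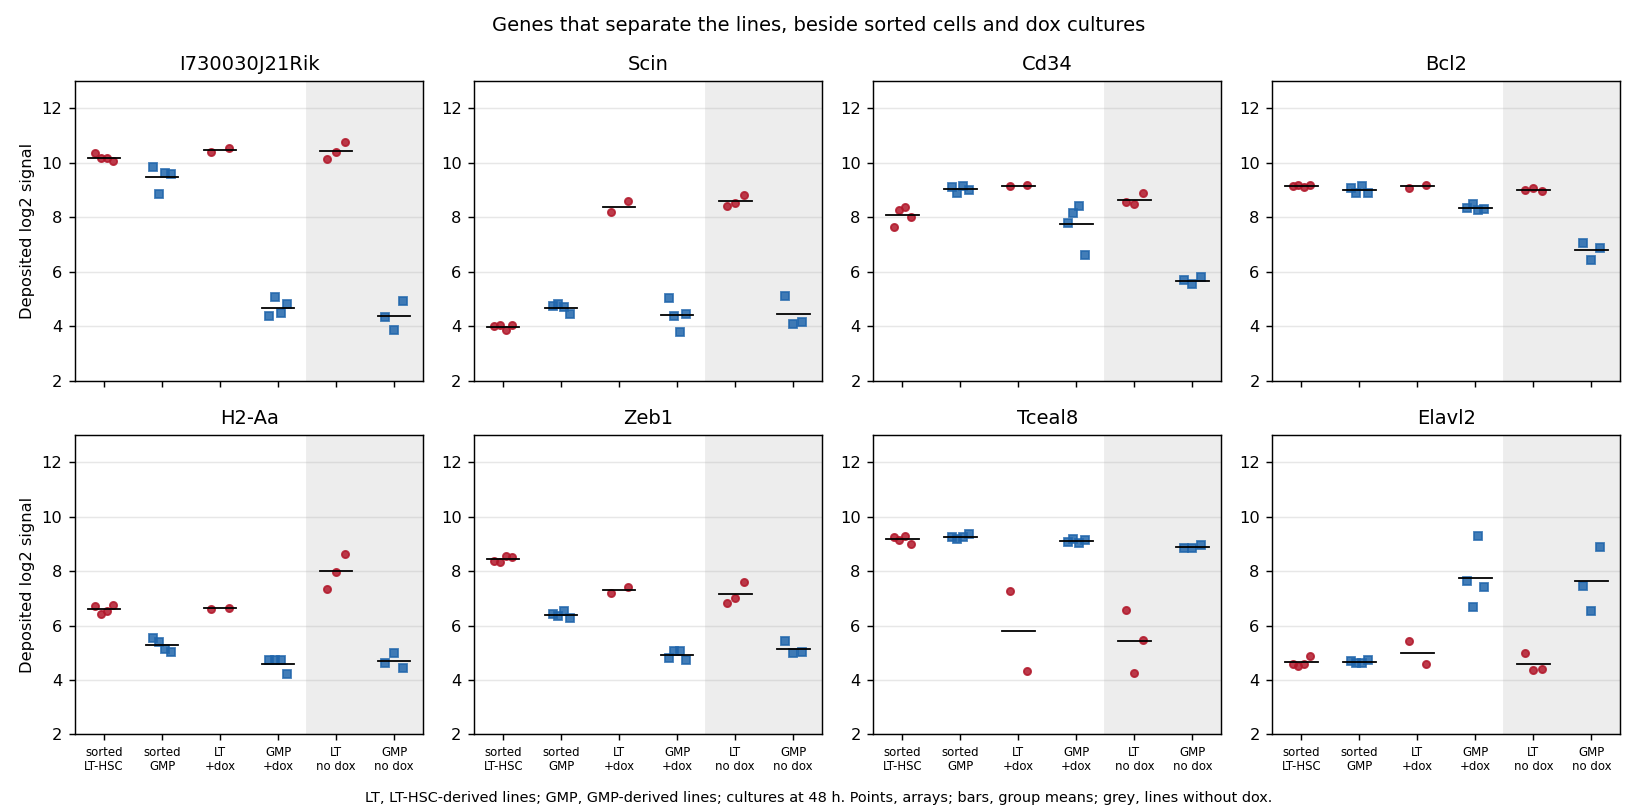
Deposited log2 signal (y axis) of 8 genes in sorted cells, in lines with dox and in lines without dox at 48 h, with 1 point per array and bars at group means. I730030J21Rik is near 10 in all groups but the GMP-derived lines, Tceal8 near 9 in all groups but the LT-HSC-derived lines, and Scin and Elavl2 are raised in lines of 1 origin only beside sorted cells of both kinds.

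The title of the series names genes of the epithelial-mesenchymal transition (EMT), the loss of epithelial junctions that lets cells migrate. Of 15 measured EMT transcription factors and cadherins 3 were called higher and none lower, beside 3.52% and 3.28% of all genes. Their median was -0.03 log2. Zeb1, a repressor of E-cadherin, read 6.84, 7.02 and 7.61 against 5.42, 5.00 and 5.02. The difference was 2.01 ± 0.15 log2 (adjusted p = 5.77e-09), close to the 2.03 log2 between sorted LT-HSC and GMP. Tcf4, an E protein, was higher by 0.75 ± 0.12 log2. Cdh1, E-cadherin itself, read 7.62, 7.84 and 8.18 against 6.88, 7.41 and 6.47 and was also higher, by 0.96 ± 0.18 log2. Zeb2, Snai1, Snai2, Twist1 and Vim did not pass, with differences between -0.17 and 0.10 log2. Tjp1, a scaffold of tight junctions, read 7.09, 7.18 and 8.17 against 5.37, 4.70 and 4.31, a difference of 2.68 ± 0.31 log2. Tjp1, Zeb1 and Tcf4 passed under all 17 alternatives. B3gnt5, which starts the lacto-series glycolipids, was higher by 2.81 ± 0.18 log2, and Plod2, a collagen lysyl hydroxylase, by 2.98 ± 0.29 log2.

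Matrix and integrin genes were split. Fn1, fibronectin, read 7.91, 8.16 and 6.76 against 9.16, 9.87 and 8.52, lower by -1.57 ± 0.43 log2. Its call was lost without B6-1 (adjusted p = 0.199) and without GMP-derived lines B6-2 (0.0646) or B6-3 (0.167). With the 72 h arrays of the LT-HSC-derived lines the Fn1 difference was -0.21 log2 (adjusted p = 0.826). Timp2, an inhibitor of metalloproteinases, was lower by -0.88 ± 0.17 log2 and passed under all alternatives. Of 18 migration and protease genes 3 were called higher and 3 lower. Itgam and Itgb2, which form the integrin Mac-1 of mature myeloid cells, were lower by -0.88 and -0.70 log2. Itga4 (0.43), Itgb7 (0.57) and Itgax (0.56) are further integrin chains with positive differences. The calls of Itgam were lost without B6-1 (adjusted p = 0.0587) and without GMP-derived line B6-3 (0.0652), and those of Itgb7 without F6-6 (0.0878) and without LT-HSC-derived line B6-3 (0.069). With the 72 h arrays Itgam differed by -0.31 log2 (adjusted p = 0.41), and 5 of the 18 migration and protease genes were higher and none lower. Vcam1, a ligand of integrin alpha 4, read 4.86, 4.88 and 4.95 against 6.48, 6.47 and 7.88, lower by -2.04 ± 0.26 log2.

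The interleukin 6 gene had the largest difference among the genes that the naming rule gave. Il6 read 7.87, 8.78 and 9.80 against 6.92, 3.31 and 3.69, and so varied by more than 3 log2 within the GMP-derived lines. The difference was 4.17 ± 0.65 log2, or 18.1-fold (adjusted p = 0.000187). Akr1c18, the enzyme that inactivates progesterone, read 9.21, 9.45 and 10.59 against 7.74, 4.48 and 4.56. Ctla2a, a cysteine protease inhibitor, read 7.71, 7.42 and 9.31 against 6.72, 3.94 and 4.0. For these 3 genes, as for the mast cell genes, LT-HSC-derived line B6-1 was highest and GMP-derived line B6-2 stood between the groups. The part of mast cell or basophil RNA in these differences was not tested. Ccl24, a chemokine for eosinophils, read 7.28, 8.71 and 10.61 against 6.13, 5.64 and 5.46. Of 17 chemokines and inflammatory cytokines 6 were called higher and 1 lower, with a median of 0.20 log2. The macrophage inflammatory chemokine Ccl3 was higher by 1.31 ± 0.33 log2, the cytokine gene Osm by 0.88, Ccl9 by 0.68, Ccl5 by 0.61 and Ccl4 by 0.34 log2. The calls of Ccl3 were lost without B6-1 (adjusted p = 0.108) and without GMP-derived lines B6-2 (0.0761) or B6-3 (0.0966), and those of Osm without B6-1 (0.0715), LT-HSC-derived line B6-3 (0.0675) or F6-6 (0.063). Il1rn, the interleukin 1 receptor antagonist, was lower by -0.77 ± 0.14 log2. The count of higher genes was 3 without B6-1, 4 without any 1 GMP-derived line and 0 when only the 6 arrays were fitted by limma (6 at an unadjusted p under 0.05). Scin, which severs actin filaments, behaved more evenly, at 8.40, 8.53 and 8.80 against 5.10, 4.07 and 4.14. Its difference was 4.14 ± 0.25 log2 (adjusted p = 1.3e-10).

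Some genes of maturing neutrophils were higher in GMP-derived lines at 48 h. Of 16 measured late neutrophil genes 4 were called lower in LT-HSC-derived lines and none higher, beside 3.28% and 3.52% of all genes. Of the 16 differences 15 were negative, and the median was -0.58 log2. Camp, the cathelicidin of secondary granules, read 9.72, 8.94 and 7.74 against 10.81, 10.98 and 11.23. GMP-derived lines were alike, whereas LT-HSC-derived lines ranged over 2 log2 with B6-1 lowest. The difference was -2.21 ± 0.53 log2 (adjusted p = 0.0115) and was not called without B6-1 (adjusted p = 0.106) or with the 72 h arrays (0.0597). Cd177, a neutrophil surface glycoprotein, read 6.83, 6.54 and 6.01 against 7.72, 7.82 and 8.78, a difference of -1.64 ± 0.24 log2. Cebpe, the factor that drives secondary granules, read 7.56, 7.52 and 7.47 against 8.08, 8.45 and 8.58, lower by -0.85 ± 0.13 log2. Csf3r, the G-CSF receptor, was lower by -0.55 log2. Ltf, lactoferrin, read 9.57, 9.54 and 7.24 against 10.36, 10.27 and 10.26 and did not pass at -1.51 log2 (adjusted p = 0.109). Lcn2 (-1.16), Ngp (-0.61) and S100a8 (-0.34) did not pass either. The mean level of the 16 late neutrophil genes was between 7.99 and 8.56 in LT-HSC-derived and between 8.99 and 9.26 in GMP-derived lines. It was between 6.99 and 7.18 in GMP-derived lines with dox, between 7.60 and 7.75 in LT-HSC-derived lines with dox, and at most 7.31 in sorted cells. In LT-HSC-derived lines at 72 h without dox it ran from 8.21 to 9.36 (median 8.91) and so overlapped the GMP-derived lines at 48 h.

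Primary granule genes, which come earlier in maturation, separated the lines less at 48 h. Of 12 measured genes on this list, which also holds the surface protein gene Igsf6, Elane and Igsf6 were called lower and none higher. Elane, neutrophil elastase, read 9.78, 9.53 and 9.76 against 10.54, 10.19 and 10.78, a difference of -0.82 ± 0.17 log2, and Igsf6, a myeloid surface protein, differed by -0.88 ± 0.13 log2. Mpo, myeloperoxidase, was at a mean of 11.61 in LT-HSC-derived and 11.60 in GMP-derived lines. The 72 h arrays of the LT-HSC-derived lines gave 4 of the 12 called lower and none higher, with a median of -0.40 log2. For the 16 late neutrophil genes those arrays gave 2 lower and 1 higher, with a median of -0.35 log2. The shares of all genes were then 3.06% lower and 3.36% higher. In sorted cells all 12 were lower in LT-HSC, as were 16.8% of all genes. Their median was -3.40 log2, against -0.29 log2 in the lines. The difference in Elane between the lines was smaller than between the sorted cells by 4.0 log2 (adjusted p = 3.88e-12). The mean level of the 12 primary granule genes was between 10.09 and 10.23 in LT-HSC-derived lines and between 10.30 and 10.54 in GMP-derived lines. It was between 10.24 and 10.35 in sorted GMP and between 6.86 and 7.13 in sorted LT-HSC, so both kinds of line read near sorted GMP.

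Some receptors of mature myeloid cells were lower as well. Msr1, a macrophage scavenger receptor, read 8.54, 7.34 and 6.32 against 10.30, 10.84 and 9.06 (-2.66 ± 0.58 log2), and its call was lost without B6-1 (adjusted p = 0.0555) and with the 72 h arrays (-1.46 log2, adjusted p = 0.153). Olr1, the receptor of oxidized LDL, read 6.77, 6.09 and 6.02 against 9.01, 8.51 and 9.08, lower by -2.57 ± 0.26 log2. C5ar1, the receptor of complement C5a, read 6.47, 6.55 and 5.80 against 7.90, 8.32 and 8.48, lower by -1.96 ± 0.26 log2. Of 19 C-type lectin and Toll-like receptors 3 were called lower and none higher, with a median of -0.53 log2. These were Clec4a2 (-1.24), Tlr1 (-0.73) and Tlr6 (-0.64). With the 72 h arrays of the LT-HSC-derived lines 2 genes of that list were higher and none lower, with a median of -0.06 log2. None of 19 monocyte and macrophage genes passed in limma, with a median of -0.23 log2, Lyz2 at -0.81 and Csf1r at -0.23 log2. With the 72 h arrays 3 of the monocyte and macrophage genes were higher and none lower, with a median of 0.27 log2. Of 14 myeloid transcription factors Cebpe, Cebpd (-0.68) and Gfi1 (-0.33) were called lower. The call of Gfi1 was lost without any 1 of the lines except LT-HSC-derived B6-1, at adjusted p between 0.0501 and 0.2, and that of Cebpd without B6-1 (0.0571). Cebpa (-0.05) and Irf8 (-0.03) did not pass. Ceacam10, a carcinoembryonic antigen family member, was lower by -2.75 log2, but by -0.92 with the 72 h arrays (adjusted p = 0.407), and its call was also lost without GMP-derived line B6-2 and LT-HSC-derived line B6-1 together (0.0623). Further genes lower in LT-HSC-derived lines were Olfm4 (-2.04), an olfactomedin of neutrophil granules, Mcemp1 (-2.20) and Abca13 (-2.14).

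Genes that respond to MYC and build ribosomes were slightly higher in LT-HSC-derived lines. Of 16 measured MYC and nucleolar genes 10 were called higher and none lower, beside 3.52% and 3.28% of all genes. All 16 differences were positive, with a median of 0.37 log2. Myc itself read 10.23, 10.46 and 10.41 against 9.71, 9.50 and 10.15, higher by 0.59 ± 0.12 log2 (adjusted p = 0.00267). Gnl3, nucleostemin, was higher by 0.54 ± 0.10 log2, and Nop56, of the box C/D particles, by 0.47 ± 0.11 log2. The GMP-derived line B6-3 was lowest for all 3, and without it only 3 genes of the list were called. There were 6 calls without LT-HSC-derived line B6-2, and as many without B6-1. When only the 6 arrays were fitted by limma none was called, with 11 at an unadjusted p under 0.05. With dox none of the 16 was called and the median was -0.04 log2.

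Of 11 cyclin D genes, partner kinases and CDK inhibitors 4 were called higher and 1 lower, beside 3.52% and 3.28% of all genes. Ccnd1 read 7.42, 7.38 and 6.97 against 6.24, 6.22 and 5.95, a difference of 1.12 ± 0.20 log2. Ccnd2 read 9.76, 9.88 and 9.48 against 8.58, 8.61 and 8.64, a difference of 1.10 ± 0.14 log2. Cdk4, the kinase that both cyclins activate, was higher by 0.54 ± 0.08 log2. The inhibitor Cdkn2d was lower by -0.34 log2. Its call was lost without GMP-derived lines B6-2 or F6-6 and without LT-HSC-derived lines B6-2 or B6-3. It was also lost with the 72 h arrays and when only the 6 arrays were fitted. None of 17 DNA replication genes and none of 16 mitosis genes passed in limma, and their medians were 0.02 and -0.10 log2. In the sorted cells 15 of the 17 and all 16 were lower in LT-HSC, as were 16.8% of all genes.

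Some of the largest differences concerned genes whose means differed much less between sorted LT-HSC and GMP. Tceal8, an X-linked transcription elongation factor homologue, read 6.57, 4.25 and 5.47 against 8.85, 8.84 and 8.97 (-3.46 ± 0.55 log2). Its means were 9.17 in sorted LT-HSC, 9.26 in sorted GMP and 9.10 in GMP-derived lines with dox, so it was low in the LT-HSC-derived lines alone among these groups. Elavl2, an RNA-binding protein best known from neurons, read 5.00, 4.36 and 4.41 against 7.46, 6.52 and 8.88 (-3.03 ± 0.46 log2). It was at 4.65 and 4.67 in the sorted cells. Penk, the precursor of enkephalins, read 6.12, 5.81 and 5.05 against 7.98, 8.05 and 8.54, and was at 5.02 and 5.39 in the sorted cells. Slc36a4, an amino acid transporter, was lower by -2.36 ± 0.20 log2. The transcription factor Ets1 read 6.31, 6.40 and 6.21 against 7.86, 7.85 and 8.15, lower by -1.65 ± 0.14 log2. Ets1 was chosen after its values were seen, as was the largest difference of all, that of I730030J21Rik, a Riken clone of no role known here. It read 10.12, 10.40 and 10.77 against 4.35, 3.85 and 4.92, a difference of 6.06 ± 0.24 log2 (adjusted p = 4.69e-14). Its means were 10.18 in sorted LT-HSC and 9.47 in sorted GMP, so its signal was low in GMP-derived lines alone.

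**Figure D4:**
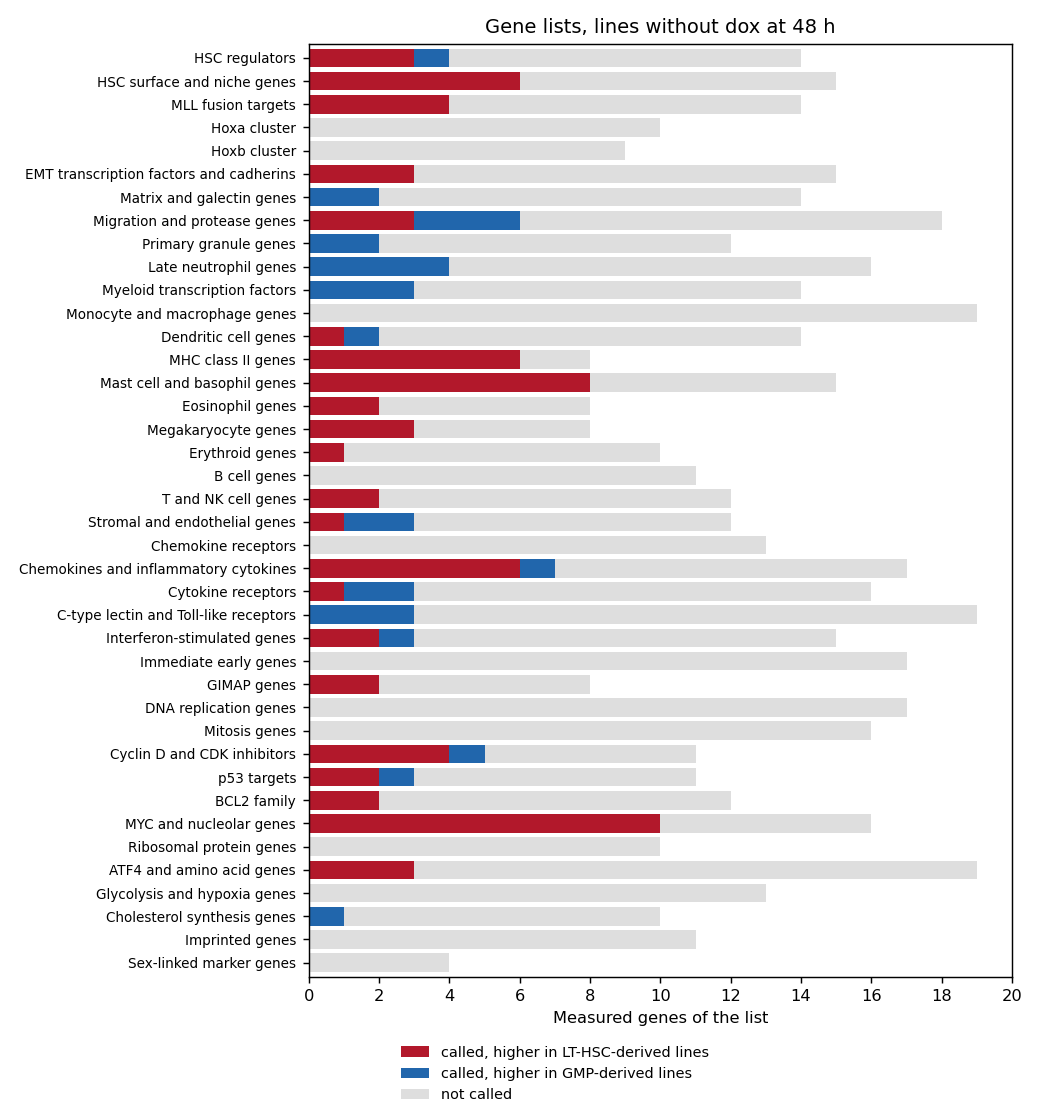
Number of measured genes (x axis) in each of 40 lists that were called higher in LT-HSC-derived lines (red), called higher in GMP-derived lines (blue) or not called (grey), beside 6.80% of all genes called. MYC and nucleolar genes, mast cell and basophil genes and MHC class II genes hold the most red calls for their size.

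Other lists are given in short. The share called was 37.5% of megakaryocyte genes, 27.3% of p53 targets and 20% of interferon-stimulated genes. It was 16.7% of T and NK cell genes and 15.8% of ATF4 and amino acid genes, beside 6.80% of all genes. Of 8 megakaryocyte genes Pf4 (1.63), Itgb3 (0.61) and Itga2b (0.58) were called higher. The call of Itgb3 was lost without B6-1 (adjusted p = 0.327) and without any 1 GMP-derived line (0.077 to 0.115). The call of Pf4, platelet factor 4, was lost without LT-HSC-derived lines B6-3 (adjusted p = 0.0571) or B6-1 (0.267) and without GMP-derived lines B6-2 (0.169), B6-3 (0.0537) or F6-6 (0.0866). Of 12 T and NK cell genes Gzmb (2.23) and Cd28 (1.36) were called. Gzmb, granzyme B, is also made by mast cells, and it read 7.28, 6.28 and 9.15 against 6.85, 4.85 and 4.32, so that GMP-derived line B6-2 lay above LT-HSC-derived line B6-3 and the groups overlapped. Its call was lost without B6-1 (adjusted p = 0.244), without GMP-derived line B6-3 (0.131) and without F6-6 (0.156). The limma tests called none of the 11 B cell genes, 13 chemokine receptors, 17 immediate early genes, 10 ribosomal protein genes, 13 glycolysis and hypoxia genes or 11 imprinted genes. Of 15 interferon-stimulated genes 2 were called higher and 1, Ifit2 (-0.94), lower. Ifi209, an interferon-inducible protein of the HIN-200 family outside that list, read 7.22, 6.96 and 4.64 against 9.11, 9.45 and 8.96. It was lower by -2.90 ± 0.63 log2, and the call was lost without B6-1 (adjusted p = 0.0553). Of 11 p53 targets Perp (1.56) and Pmaip1 were higher and Fas (-1.14) lower. Amino acid transporters Slc7a11 (0.81), Slc7a3 (0.74) and Slc7a5 (0.34) were the 3 calls among 19 ATF4 and amino acid genes, and that of Slc7a3 was lost without any 1 line but LT-HSC-derived B6-2 (adjusted p from 0.0684 to 0.172).

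Lines with dox at 48 h come from separate arrays but from lines that largely bear the same names. There 421 genes (2.11%) were called between the origins, 1.17% of all genes higher and 0.943% lower in LT-HSC-derived lines. Of the 702 genes higher without dox, 136 (19.4%) were also higher with dox, which is 58.4% of the 233 genes higher there, and 1 was lower. Of the 653 lower, 94 (14.4%) were lower with dox, 50% of the 188 there. Across the 1355 genes called without dox the differences correlated with r = 0.82 (Spearman's rho 0.78), over genes chosen by one of the differences. Over all 19937 genes r was 0.59 and rho 0.28, and genes are no independent replicates. Scin (3.97 log2 with dox), Il6 (2.99), Cpa3 (3.21), Flt3 (2.80), Zeb1 (2.37), H2-Aa (2.03), Tceal8 (-3.29), Elavl2 (-2.74) and I730030J21Rik (5.78) were called in both. Of the 15 mast cell and basophil genes 1 was called higher with dox and none lower, with a median of 0.69 log2. Among eosinophil genes 1 of 8 and among MHC class II genes 3 of 8 were called higher with dox, and none lower. Fewer genes passed with dox, but that count rests on 2 LT-HSC-derived arrays, and 110 genes passed without the array of line B6-3 and 237 without that of line B6-2.

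Whether the origin difference itself differed with dox was tested as an interaction, and 46 genes (0.231%) passed, 0.161% with a positive and 0.0702% with a negative change. The count was 8 without the dox array of LT-HSC-derived line B6-3 and 18 without that of B6-2. It was 28 without the dox array of GMP-derived line B6-2, 29 without GMP-derived line B6-3 in the cultures without dox and 28 without LT-HSC-derived line B6-1. Most lines were measured both with and without dox, which these fits did not pair. With the line as a block, in a fit of the groups compared alone, 131 genes passed. The gene values below are from the unpaired fit. Bcl2 differed by 2.23 log2 without dox and 0.80 with it, a change of -1.43 ± 0.16 log2 (adjusted p = 8.76e-05). Its mean in GMP-derived lines was 8.34 with dox and 6.79 without, while in LT-HSC-derived lines it was 9.14 and 9.01. C5ar1 differed by -1.96 log2 without dox and 0.07 with it (interaction adjusted p = 0.0183), Cd177 by -1.64 and 0.07 (adjusted p = 0.0377) and Clec4a2 by -1.24 and 0.62 (adjusted p = 0.0215). For C5ar1 the means of GMP-derived lines were 5.24 with dox and 8.23 without, against 5.31 and 6.27 in LT-HSC-derived lines. Ets1 changed in the same direction, from -1.65 without dox to -0.45 with it (adjusted p = 0.00883). For Mecom the larger difference was the one with dox, 2.69 log2 against 0.67 without (adjusted p = 0.0109), with LT-HSC-derived means of 7.37 and 5.22. Chil3, a chitinase-like protein of neutrophils and macrophages, differed by 2.38 log2 with dox and by -0.42 without (adjusted p = 0.014). Camp had means of 7.54 and 7.55 with dox, but its interaction did not pass (adjusted p = 0.356). Meis1 (1.42 without dox, 0.23 with it) and Mef2c (1.31 and 0.44) did not pass the interaction either (adjusted p = 0.0575 and 0.0607).

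Sorted LT-HSC and GMP gave the same contrast in cells that had not been cultured, on arrays the lines do not share. Of 19937 genes 6402 (32.1%) were called between the sorted cells, 47.5% of them higher in LT-HSC, or 33.9% of 6744 after each array was centred on its median. Of the 702 genes higher in LT-HSC-derived lines, 259 (36.9%) were higher in sorted LT-HSC and 168 (23.9%) lower, beside 15.3% and 16.8% of all genes. Of the 653 lower genes, 317 (48.5%) were lower in sorted LT-HSC and 82 (12.6%) higher. Both shares in the same direction were thus above the background. So was the opposite share of the higher genes (23.9% against 16.8%), but not that of the lower genes (12.6% against 15.3%). The correlation across the 1355 genes was 0.30, or 0.19 over all 19937 genes. Angpt1 (4.53 log2 in sorted cells), Ctla2a (4.74), Tjp1 (2.52), Tet1 (1.84, against 1.78 in the lines), Cd27 (1.16) and Zeb1 (2.03) ran the same way in both. Ifi209 (-5.79), Olr1 (-2.06), Mcemp1 (-1.89) and Abca13 (-1.55) were lower in both. Il6 (-1.51), Prg2 (-3.15), Rnase12 (-2.61) and Cd34 (-0.96) ran opposite. Tet1, the methylcytosine dioxygenase, read 7.21, 7.64 and 7.69 against 5.92, 5.56 and 5.71 in the lines and was chosen after its values were seen.

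**Figure D5:**
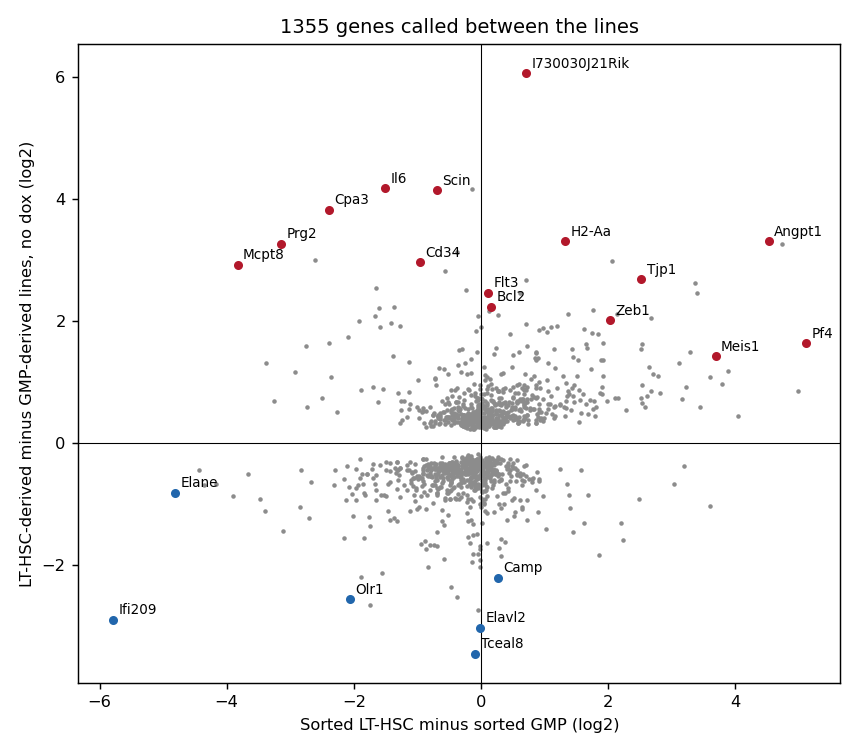
Difference between sorted LT-HSC and sorted GMP (x axis, log2) against the difference between lines without dox (y axis, log2) for the 1355 genes called between the lines, with named genes coloured by direction. Mcpt8, Prg2, Cpa3 and Il6 lie in the upper left, where lines and sorted cells run opposite, while Angpt1, Pf4 and Meis1 lie in the upper right.

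The large differences were set against the sorted counterpart of each line, with a margin of 1 log2 between group means and no test, since the line arrays are the same. Of the 120 large positive differences, LT-HSC-derived lines lay above sorted LT-HSC in 49 and GMP-derived lines below sorted GMP in 43, with 14 genes in both sets and 42 in neither. Scin, Il6 and Ccl24 belonged to the first set, and Cd34, Bcl2 and I730030J21Rik to the second. Of the 85 large negative differences, GMP-derived lines lay above sorted GMP in 61 and LT-HSC-derived lines below sorted LT-HSC in 13. Camp, Elavl2, Penk and C5ar1 were among the 61, and Tceal8 and Slc36a4 among the 13. Lines also differ from sorted cells in having been cultured and immortalized, and these cannot be told apart here.

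The LT-HSC-derived lines were also measured without dox at 72 h, which gave a second set of arrays to set against the same 3 GMP-derived arrays. The GMP-derived arrays are at 48 h, so time differs along with origin in this comparison. With the 72 h arrays, 1279 genes (6.42%) passed, 3.36% of all genes higher and 3.06% lower. Of these genes 695 were shared with the 48 h comparison. All 8 MHC class II genes, the same number of mast cell and basophil genes (8) and 5 eosinophil genes were called higher. Of the late neutrophil genes 2 were called lower and 1 higher, and of the MYC and nucleolar genes none was called by limma, with 5 at an unadjusted p under 0.05. Between 72 h and 48 h within the LT-HSC-derived lines 36 genes (0.181%) were called, 24 of them higher (0.120% of all genes) and 12 lower (0.0602%) at 72 h. The share of higher calls was 66.7%, and 50% after median centring, when 22 genes were called. Without the 48 h array of line B6-2 or B6-3 no gene was called by limma, with 2131 and 2383 at an unadjusted p under 0.05, and without that of B6-1 22 were called. Leaving out a 72 h array gave between 10 and 57 calls. The same 3 lines were measured at both times, and these fits did not pair them. With the line as a block, in a fit of the 2 groups alone, 112 genes were called, 79.5% of them higher at 72 h.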

How the data were processed

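RNA of cultured lines (total RNA, amplified and biotin-labelled, per the labels' protocols) was measured on Affymetrix gene-level arrays. The deposited values are log2 signals, which the authors made with limma and R 3.1.1, per the submitters' processing notes; background correction, summarisation and normalization have no description in those notes. Of 34760 probe sets on 26 arrays, 21640 carried 1 gene symbol, 1321 several and 11799 none, and 21553 matched RefSeq. For a gene with several probe sets, the one with the highest mean signal was kept, which gave 19937 genes. Array medians ran from 5.81 to 5.91, and no arrays were identical. The number of arrays limits the precision.

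Group means were fitted by limma 3.58.1 (R 4.3.3, moderated, 2-sided) on the 26 arrays together, so that all groups share the estimate of spread, and p-values were adjusted by Benjamini-Hochberg over 19937 genes. A call is an adjusted p under 0.05. The script was tested on simulated data. Named genes are the 15 called, non-overlapping genes with the largest difference in each direction whose higher mean exceeds the median of probe sets, without predicted genes, small RNAs, sensory receptors and antigen receptor segments. To these come the 4 members of each of 40 lists with the largest absolute difference, and also Hprt, Meis1, Hoxa9, Erg, Mllt3, Kmt2a, Tcf4, Zeb1 and Mecom. Other called members of a list are given with their list. The members and the lists were chosen with earlier results of these data known. The 17 alternatives cover scaling, filters, probe set choice, weights, blocks and arrays left out. They also include the 72 h arrays of the LT-HSC-derived lines set against the GMP-derived arrays at 48 h, where time differs along with origin.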

Additional observations from a re-analysis of the deposited data

Results flagged for a closer look

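Several origin differences changed with dox beyond the threshold of the interaction test (limma, difference with dox minus difference without). The change was 2.03 log2 for C5ar1, 1.72 for Cd177, 1.85 for Clec4a2 and 2.79 for Chil3. It was 2.03 log2 for Mecom and -1.43 for Bcl2.

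Single arrays stood apart from the rest of their group, in 5 of 69 groups of 4 arrays looked at, where chance flags about 1 in 20. Cpa3 read 6.77 on GMP-derived dox array 1, which is line B6-2, against 4.16 to 4.38 on the others. The same line was the high one for Cpa3 without dox, and Hoxa9 read 7.57 on it with dox against 7.44 to 7.46. H2-Aa read 4.23 on GMP-derived dox array 4 against 4.72 to 4.74. Sorted GMP array 2 read 10.09 for Prg2 against 9.33 to 9.44, and 6.45 for Cd177 against 6.29 to 6.30.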

How the results depend on the processing

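Against 1355 calls between origins without dox, there were 595 when only the 6 arrays were fitted, 550 of them among the 1355, and 617, with 588 among the 1355, when GMP-derived line B6-2 and LT-HSC-derived line B6-1 were left out together, an alternative chosen after seeing the data. Leaving out 1 array gave between 743 and 1149 calls, and the 8 other settings gave between 1171 and 1828. With dox, leaving out 1 array gave between 110 and 355 calls against 421, of which 104 and 331 were among the 421. The interaction count of 46 became 87 with array weights and 21 with only the groups compared, and between 8 and 55 without 1 array. The count between 72 h and 48 h, 36, became 335 with array weights, 62 with the line as a random block, 22 after median centring, 0 with only the groups compared (1823 at an unadjusted p under 0.05, limma), and between 0 and 57 without 1 array. Counts for the sorted cells and for the line difference minus the sorted difference stayed within 1.5 times. The cause of these changes was not tested, except that fewer arrays leave fewer degrees of freedom.

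Replicate numbers are shared between origins. Deviations of same-numbered lines from their group means correlated at r = 0.018, 0.173 and -0.027 across genes, and other pairings went down to -0.133. With 3 arrays in a group these values cannot decide whether lines of the 2 origins are paired. Within an origin the number is the line, so there it pairs arrays across dox and time. With the replicate number as a block, the count was 561 without dox. With the line as a block it was 131 for the interaction and 112 between 72 h and 48 h.

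Deposited signals carry no detection call, so low means such as those of Il6 or Scin in GMP-derived lines set no floor. Array number, 3 lines of each origin, limits what small differences can be seen.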
